A study of Mus musculus with 4 samples.

Results

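The genes described here are 10 parts of the calcium-dependent signalling that drives growth of heart muscle cells. They are the calcineurin catalytic subunits Ppp3ca and Ppp3cb, the calcineurin regulators Rcan1 and Rcan2, the transcription factors Nfatc1, Nfatc2, Nfatc3 and Nfatc4, the kinase Camk2d and the deacetylase Hdac9. They were chosen by gene name, and all 10 were found among the 46603 genes of the deposited table.

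Calcineurin is a phosphatase that calcium and calmodulin switch on, and it removes phosphates from NFAT proteins so that they enter the nucleus and act with other factors on hypertrophy genes. RCAN proteins bind calcineurin and restrain it, and a short Rcan1 transcript that begins at a downstream start is itself a known target of NFAT. Calcium and calmodulin also switch on CaMKII, which phosphorylates class IIa histone deacetylases and so releases MEF2 factors from repression.

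Polyadenylated RNA of the ventricles was sequenced from C57Bl6/J mice that were P2Y6-null (KO) or wild type (WT), the receptor P2Y6 being one for the nucleotide UDP. Mice were 8 to 12 weeks old and were injected intraperitoneally each day for 7 days with isoproterenol, a beta-adrenergic agonist used to provoke hypertrophy, at 50 mg/kg/day, or with saline. The 4 groups are KO with isoproterenol, KO with saline, WT with isoproterenol and WT with saline, each with 1 library, and the sources used here do not say whether a library is 1 heart or a pool. The P2Y6-null allele is not described further than as a null, and no cell type restriction is given for it.

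The libraries held 18771198 reads in listed genes in KO with isoproterenol, 22965087 in KO with saline, 20721472 in WT with isoproterenol and 25637369 in WT with saline. P2ry6, the targeted gene, had 10 and 13 reads in the KO isoproterenol and KO saline libraries, against 122 and 131 reads in WT isoproterenol and WT saline. It was lower in KO by 12.2-fold under isoproterenol (interval 6.73 to 27.4) and by 8.43-fold under saline (4.93 to 16.8). All 8 cardiomyocyte markers were above 0 in every library. Mitochondrially encoded genes took 22.5% of reads in KO with isoproterenol and 24.9% to 28.9% in the other 3 libraries. Levels below are the authors' CPM, in which each library is set to a total of 1000000. Folds compare recovered reads after TMM scaling, which sets the typical gene to no change, with a 95% interval for counting error in parentheses, and a bound under 1 lies on the other side of no change. A call, higher or lower, needs an interval that lies entirely past 1.5-fold. With 1 library a group there is no spread between hearts and no p-value for a pair, so a call compares libraries and not conditions. Reads carry no molecular identifiers, so they may not be independent molecules, which the intervals leave out.

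Of the 10 genes, Rcan1 was the 1 called, and it was called in the KO isoproterenol library. It was higher there than in KO with saline and higher than in WT with isoproterenol. Of the 10 genes, 1 was called between KO isoproterenol and KO saline (the KO pair), where 11.3% of the 14301 genes with enough reads were called, and 0 were called between WT isoproterenol and WT saline (the WT pair), where 1.66% were. In the contrast of KO isoproterenol with WT isoproterenol 1 of 10 was called, against 6% of all tested genes. Between KO saline and WT saline 0 of 10 were called, against 0.489%. The difference of the isoproterenol responses, KO minus WT, called 1 of 10, against 5.57%. These counts stand near the shares over all tested genes, so they show nothing particular to the 10 genes as a set. All 10 genes passed the minimum mean of 10 reads per library.

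**Figure D1:**
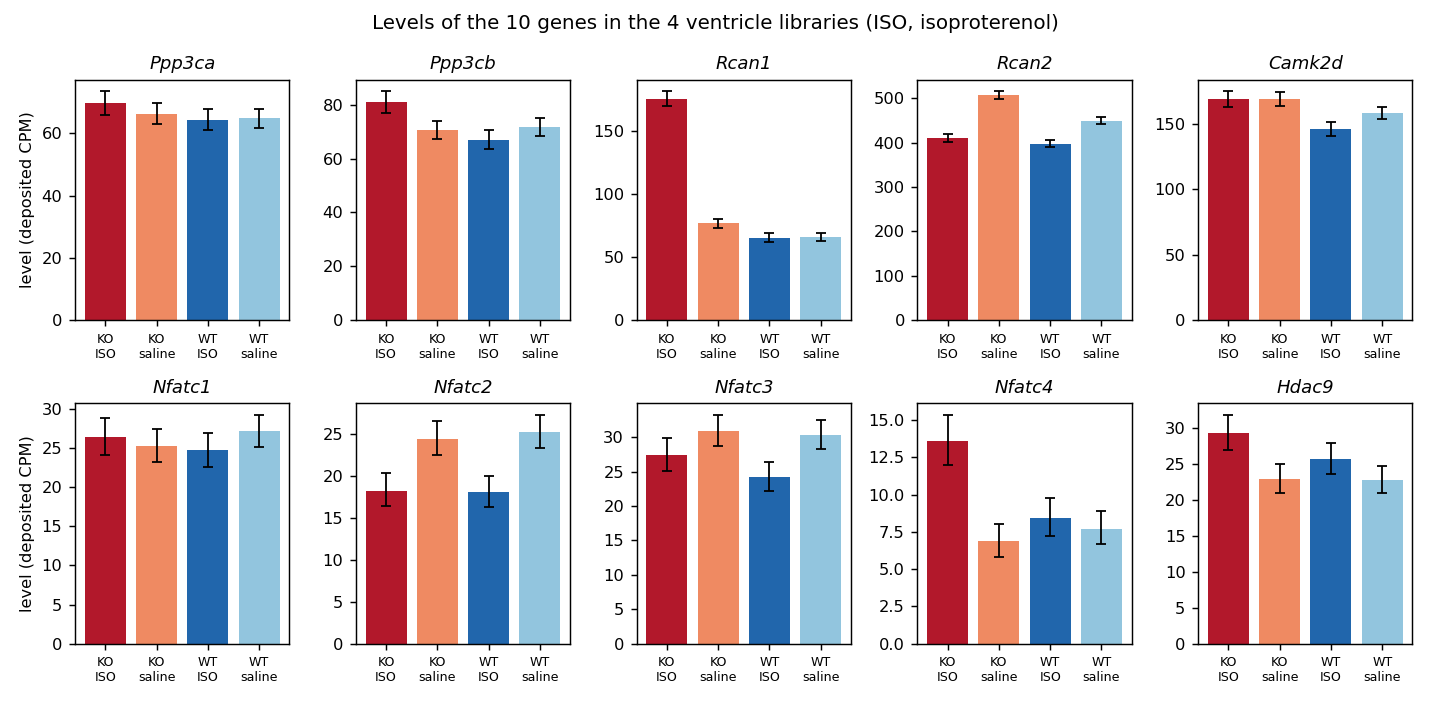
Deposited CPM (y axis, from 0, a scale of its own in each panel) of the 10 genes in the KO isoproterenol, KO saline, WT isoproterenol and WT saline libraries. Bars are single libraries, and the lines on them are 95% Poisson counting intervals. Rcan1 stands at 176 CPM in KO with isoproterenol and at 65.5 to 76.8 CPM in the other 3 libraries.

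The calcineurin catalytic subunits had nearly level values. Ppp3ca (chr3:136670124-136937727, plus strand) encodes the alpha isoform and had 69.7 CPM in KO with isoproterenol, 66.3 in KO with saline, 64.4 in WT with isoproterenol and 64.8 in WT with saline. Ppp3cb (chr14:20499364-20546573, minus strand) encodes the beta isoform and had 80.9, 70.6, 67.0 and 71.6 CPM in KO isoproterenol, KO saline, WT isoproterenol and WT saline. After scaling, the KO isoproterenol library stood 1.08-fold below KO saline for Ppp3ca (interval 1.0 to 1.16) and 1.01-fold above it for Ppp3cb (0.941 to 1.08). In WT the isoproterenol library stood 1.05-fold above saline for Ppp3ca (0.976 to 1.13) and 1.01-fold below it for Ppp3cb (0.943 to 1.08). All of these intervals lie within 1.2-fold, and the order of the values does not separate the treatments. With the deposited totals in place of TMM, Ppp3cb stood 1.15-fold higher in the KO pair (1.07 to 1.23), which passes 1.2-fold. Positions are on GRCm38, from GENCODE M21. Fewer cells of a type and less RNA per cell cannot be told apart in bulk tissue, here or below.

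Over the listed calcineurin subunits, 4 of 5 had enough reads, and 0 of these 4 were called in any of the 5 comparisons. Of all tested genes, 0.489% to 11.3% were called, depending on the comparison. The median log2 ratio of these 4 was -0.07 in the KO pair and 0.00 in the WT pair, against 0.00 over all tested genes in both.

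Rcan1, the 1 gene of the 10 with a call, had a level that stood apart in 1 library. It lies on chromosome 16 (92391953 to 92470867, minus strand), has 2 transcription starts in the RefSeq promoter table, and encodes an inhibitor of calcineurin. The Rcan1 windows of 250 bases before each start are shown because the downstream start is the one described as an NFAT target, and they carry different letters. They come from RefSeq on GRCm38.p6, read 5′ to 3′ on the minus strand, with each match to the NFAT core GGAAA, on either strand, in capitals. The downstream window is chr16:92400079-92400328 and the upstream one is chr16:92466170-92466419, and the starts lie 66091 bases apart.
Rcan1 downstream start: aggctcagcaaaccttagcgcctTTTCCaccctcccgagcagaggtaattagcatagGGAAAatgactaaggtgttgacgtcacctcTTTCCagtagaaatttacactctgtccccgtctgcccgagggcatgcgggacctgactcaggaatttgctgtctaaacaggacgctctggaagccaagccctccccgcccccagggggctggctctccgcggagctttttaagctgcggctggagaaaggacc
Rcan1 upstream start: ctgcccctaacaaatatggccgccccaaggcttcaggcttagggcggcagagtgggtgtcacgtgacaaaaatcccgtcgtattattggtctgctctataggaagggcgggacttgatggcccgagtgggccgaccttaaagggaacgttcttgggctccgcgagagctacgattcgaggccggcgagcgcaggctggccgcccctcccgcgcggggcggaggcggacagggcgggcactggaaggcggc

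The downstream window holds 3 matches to GGAAA, at bases -227, -193 and -163 before the start, and the upstream window holds 0. At least 3 matches occur in 6.39% of 32851 windows of the same length, and at least 1 in 55.6%. The downstream window also holds 1 match to the AP-1 letters TGANTCA, found at least once in 6.75% of windows, and 2 to the CRE half-site TGACG, found at least 2 times in 3.9%. Those 2 matches are the same palindromic element read on each strand. The upstream window holds 0 matches to these letters and 0 to the MEF2 letters, CTA and TAG spaced by 4 bases, which the downstream window also lacks and which occur in 3.2% of windows. The AP-1, CRE and MEF2 letters were searched on both strands. A match describes letters and is no evidence of binding, and the deposited table gives 1 value per gene, so the start that the Rcan1 reads came from cannot be read from it.

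Rcan1 had 176 CPM in KO with isoproterenol (3297 reads), 76.8 in KO with saline (1764 reads), 65.5 in WT with isoproterenol (1357 reads) and 65.8 in WT with saline (1688 reads). The KO isoproterenol library is the high one, and the other 3 lie close together. In KO, Rcan1 was higher with isoproterenol than with saline by 2.02-fold (interval 1.90 to 2.14), a log2 ratio of 1.01. That ratio ranks 1056 of 14301 genes from the highest, with 92.6% of genes below it, and it is not a call at a threshold of 2-fold. In WT the ratio of isoproterenol to saline was 1.05 (0.978 to 1.13), or 1.01-fold the other way with the deposited totals in place of TMM. Under isoproterenol, Rcan1 was higher in KO than in WT by 2.31-fold (2.17 to 2.47), which ranks 412 of 14301. Under saline the KO library stood 1.21-fold above WT (1.13 to 1.29), an interval that excludes 1 and stays inside 1.5-fold. The KO response exceeded the WT response by 0.94 on the log2 scale (0.81 to 1.07), or 1.92-fold.

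The KO isoproterenol library differed from the other 3 in cell type markers as well, and the markers' part in the Rcan1 result was not tested. Macrophage markers summed to 872 CPM there, against 356 in KO with saline, 387 in WT with isoproterenol and 397 in WT with saline, and 6 of 9 were called higher in the KO pair. Fibroblast markers summed to 4119 CPM in KO with isoproterenol, against 2310, 2736 and 2593 CPM in KO saline, WT isoproterenol and WT saline, with 4 of 8 called higher and 1 lower. Cardiomyocyte markers summed to 60589 CPM in KO with isoproterenol and to 67718 to 71572 CPM in the other 3 libraries, and 4 of 8 were called lower. Every macrophage, fibroblast and cardiomyocyte marker was above 0 in all 4 libraries.

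Other marker lists also differed between libraries, and their part was not tested. Atrial markers summed to 281 CPM in KO with isoproterenol, 169 in KO with saline, 202 in WT with isoproterenol and 254 in WT with saline. Of the 7, 3 were called higher in the KO pair (Myl4, Bmp10 and Dkk3), and 2 were called lower in KO than in WT under saline (Myl4 and Bmp10). Bmp10 had 149 reads in KO with isoproterenol, 1 in KO with saline, 74 in WT with isoproterenol and 35 in WT with saline. Valve and endocardial markers summed to 304 CPM in KO with isoproterenol and to 154 to 217 CPM in the other 3 libraries, with 3 of 6 called higher in the KO pair. Of the 7 skeletal muscle markers 4 had enough reads, and in the KO pair 3 were called higher and 1, Ckm, lower. Their sum rests on Acta1, a gene described below as a target: with it the sum was 2527 CPM in KO with isoproterenol and 1541 to 1933 CPM in the others, and without it 845 CPM in KO with isoproterenol, 1126 in KO with saline, 1060 in WT with isoproterenol and 1259 in WT with saline. Myh4 had 0 reads in all 4 libraries and Myh1 had 0 in KO with isoproterenol. Endothelial markers were level, at 1092 CPM in KO with isoproterenol and 1033 to 1116 CPM elsewhere, with 0 of 8 called in any comparison.

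The genes whose scaled log2 levels over the 4 libraries lay nearest to Rcan1, each centred on its own mean, were Slc39a6, a zinc transporter, Lilrb4a, an inhibitory receptor of leukocytes, and Clmp, an adhesion molecule. Their root mean square distances from Rcan1 were 0.030, 0.032 and 0.042 on the log2 scale, over 4 libraries. Slc39a6 had 17.2 deposited CPM in KO with isoproterenol, 7.27 in KO with saline, 6.56 in WT with isoproterenol and 6.47 in WT with saline.

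Rcan2 (chr17:43801351-44039516, plus strand), the relative of Rcan1 that heart and brain express strongly, was not called in any comparison. It had 411 CPM in KO with isoproterenol, 507 in KO with saline, 398 in WT with isoproterenol and 450 in WT with saline. Both isoproterenol libraries had lower CPM than the saline library of their genotype. The KO isoproterenol library stood 1.40-fold below KO saline (1.36 to 1.44), an interval inside 1.5-fold, and the WT isoproterenol library stood 1.07-fold below WT saline (1.04 to 1.10). The difference of the responses, KO minus WT, was -0.39 on the log2 scale (-0.44 to -0.33). Under saline KO stood 1.17-fold above WT (1.14 to 1.20), and under isoproterenol 1.12-fold below it (1.09 to 1.16) with TMM but 0.05 above it on the log2 scale with the deposited totals.

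Per kilobase of the longest transcript, Rcan2 had the largest level of the 3 RCAN genes in each library. Its share of their summed CPM per kilobase was 60.8% in KO with isoproterenol, 80.8% in KO with saline, 79.3% in WT with isoproterenol and 81.2% in WT with saline. The share of Rcan1 was 37.0%, 17.5%, 18.6% and 16.9% in KO isoproterenol, KO saline, WT isoproterenol and WT saline. The summed level of the family was 609 CPM in KO with isoproterenol, 600 in KO with saline, 479 in WT with isoproterenol and 531 in WT with saline. After TMM scaling the sums were 556 CPM in KO with isoproterenol, 621 in KO with saline, 506 in WT with isoproterenol and 532 in WT with saline. With the length of all exons in place of the longest transcript, the Rcan1 share was 36.7% in KO with isoproterenol and 16.8% to 18.4% in the other 3 libraries.

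**Figure D2:**
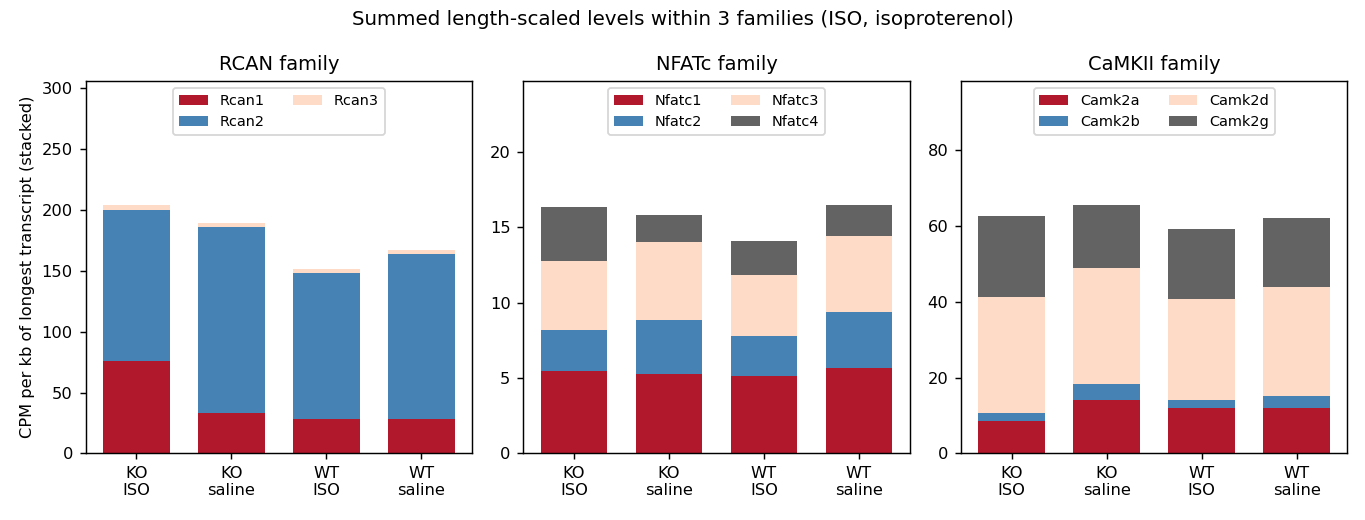
CPM per kilobase of the longest transcript, stacked over the genes of the RCAN, NFATc and CaMKII families (y axis, from 0, a scale of its own in each panel), in the KO isoproterenol, KO saline, WT isoproterenol and WT saline libraries. Colours are genes of a family. The Rcan1 segment takes 37.0% of its family in KO with isoproterenol and 16.9% to 18.6% in the other libraries.

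Of the 12 listed calcineurin inhibitors, anchors and partners, 10 had enough reads. In the KO pair 1 was called higher, Rcan1, and 1 lower, Myoz2, a protein of the muscle Z-disc that binds calcineurin. The share called over all tested genes in that pair was 11.3%. Myoz2 had 538 CPM in KO with isoproterenol, 814 in KO with saline, 618 in WT with isoproterenol and 841 in WT with saline. It was lower in KO with isoproterenol than in KO with saline by 1.72-fold (1.67 to 1.76), and the WT isoproterenol library stood 1.29-fold below WT saline (1.26 to 1.32). With the deposited totals the KO ratio of Myoz2 was 1.51 (1.48 to 1.55), which is not a call. The median log2 ratio of the 10 was 0.09 in the KO pair and -0.02 in the WT pair. Of the 8 cardiomyocyte markers, 4 were called lower and 0 higher in the KO pair, and their part in the Myoz2 value was not tested.

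Of the 4 calcium-regulated NFAT genes, 0 were called in any comparison, against 0.489% to 11.3% of all tested genes. Nfatc4 (chr14:55823144-55833943, plus strand), a factor whose active form causes hypertrophy when expressed in mouse heart, came nearest. It had 13.6 CPM in KO with isoproterenol (255 reads), 6.88 in KO with saline (158 reads), 8.45 in WT with isoproterenol (175 reads) and 7.72 in WT with saline (198 reads). As for Rcan1, the KO isoproterenol library is the high one. The KO isoproterenol library stood 1.74-fold above KO saline, but the interval (1.42 to 2.14) includes 1.5-fold. With the deposited totals the ratio was 1.97 (1.61 to 2.42), and with totals outside mitochondrial genes 1.88 (1.53 to 2.30), and both would be calls. In WT the ratio was 1.16 (0.938 to 1.42), and the difference of the responses, KO minus WT, was 0.59 on the log2 scale (0.18 to 1.0). Under isoproterenol KO stood 1.39-fold above WT (1.14 to 1.69), and under saline 1.08-fold below it (0.876 to 1.35). The marker sums given beside Rcan1 stand apart in the same library, and their part in these values was not tested.

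Nfatc2 (chr2:168476410-168601657, minus strand), best known from T cells, had the lower CPM in both isoproterenol libraries. It had 18.2 CPM in KO with isoproterenol, 24.4 in KO with saline, 18.0 in WT with isoproterenol and 25.2 in WT with saline. The isoproterenol libraries lie close to each other, and so do the saline libraries. The share of all tested genes with such an order was not counted. The ratio stood 1.52-fold below 1 in the KO pair (1.33 to 1.74) and 1.32-fold below 1 in the WT pair (1.16 to 1.51), with intervals that exclude 1 and include 1.5-fold.

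Nfatc3 (chr8:106058840-106130537, plus strand), a mediator of calcineurin-driven hypertrophy in mouse heart, had 27.4 CPM in KO with isoproterenol, 30.9 in KO with saline, 24.2 in WT with isoproterenol and 30.3 in WT with saline. Its isoproterenol libraries stood 1.28-fold below saline in KO (1.14 to 1.44) and 1.18-fold below it in WT (1.06 to 1.33). Its exons share 219 bases with Esrp2 on the opposite strand, 1.87% of the exonic length, and Esrp2 had 11 to 33 reads a library. Nfatc1 (chr18:80606205-80713071, minus strand), which acts in heart valve formation, had 26.3 CPM in KO with isoproterenol, 25.2 in KO with saline, 24.7 in WT with isoproterenol and 27.1 in WT with saline. Its intervals include 1 in both genotypes, with ratios 1.09-fold below 1 in the KO pair (0.962 to 1.23) and 1.04-fold below 1 in the WT pair (0.927 to 1.17). The value of Nfatc1 in the KO pair changes side with the deposited totals, at 0.06 above 0 on the log2 scale.

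Per kilobase of the longest transcript, Nfatc1 had the largest share of the NFATc sum in each library, at 33.6% in KO with isoproterenol, 33.2% in KO with saline, 36.6% in WT with isoproterenol and 34.3% in WT with saline. The share of Nfatc4 was 22.0%, 11.5%, 15.9% and 12.4% in KO isoproterenol, KO saline, WT isoproterenol and WT saline. The listed NFAT kinases, which put back the phosphates that calcineurin removes, had 11 of 11 genes with enough reads. Of these 11, 0 were called in any comparison, against 0.489% to 11.3% of all tested genes. Their median log2 ratio was -0.16 in the KO pair and -0.05 in the WT pair.

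Camk2d (chr3:126596302-126846326, plus strand), the CaMKII isoform that predominates in heart muscle, had 169 CPM in KO with isoproterenol, 169 in KO with saline, 146 in WT with isoproterenol and 159 in WT with saline. After scaling, the KO saline library was the high one, at 175 scaled CPM, and the other 3 lay between 154 and 159. The isoproterenol libraries stood 1.14-fold below saline in KO (1.08 to 1.19) and 1.03-fold below it in WT (0.979 to 1.08). Under isoproterenol the log2 ratio of KO to WT was 0.00 (-0.07 to 0.07), and under saline KO stood 1.11-fold above WT (1.06 to 1.16). The difference of the responses was -0.15 on the log2 scale (-0.24 to -0.05) with TMM and 0.12 with the deposited totals, so its direction rests on the scaling.

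Camk2a and Camk2b, the other genes of the family named here, were called in the KO pair. Of 15 listed CaM kinases, their inhibitors and calmodulins, all with enough reads, 0 were called higher and 2 lower in the KO pair, and 0 were called in the WT pair. Over all tested genes the shares called were 11.3% in the KO pair and 1.66% in the WT pair, so the list stands near them. Camk2a encodes the alpha isoform and had 42.2 CPM in KO with isoproterenol, 70.0 in KO with saline, 59.2 in WT with isoproterenol and 59.4 in WT with saline. It was lower in KO with isoproterenol than in KO with saline by 1.88-fold (1.73 to 2.05), and the WT ratio was 1.05 (0.977 to 1.14). The difference of its responses, KO minus WT, was called at -0.99 on the log2 scale (-1.15 to -0.82), and was not called with the deposited totals (-0.72, -0.89 to -0.56). Camk2b, the beta isoform, had 9.38 CPM in KO with isoproterenol, 17.2 in KO with saline, 9.56 in WT with isoproterenol and 13.8 in WT with saline. It was lower in KO with isoproterenol than in KO with saline by 2.07-fold (1.73 to 2.49), and the WT ratio stood 1.36-fold below 1 (1.14 to 1.63). The marker sums given beside Rcan1 stand apart in the KO isoproterenol library, and their part in the Camk2a and Camk2b values was not tested. The summed CPM of the 4 CaMKII genes was 300 in KO with isoproterenol, 318 in KO with saline, 283 in WT with isoproterenol and 299 in WT with saline. After TMM scaling these sums were 273 CPM in KO with isoproterenol, 329 in KO with saline, 300 in WT with isoproterenol and 299 in WT with saline. Per kilobase, Camk2d had the largest share in each library with the longest transcript (44.7% to 48.9%), but not with the length of all exons (24.8% to 28.4%), so the order of the isoforms rests on the length used.

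Hdac9 (chr12:34047580-34917095, minus strand) encodes a class IIa deacetylase that represses MEF2, and it is itself a known MEF2 target. It had 29.3 CPM in KO with isoproterenol, 22.9 in KO with saline, 25.7 in WT with isoproterenol and 22.8 in WT with saline. Both isoproterenol libraries are above both saline libraries, an order whose share over all tested genes was not counted. The KO isoproterenol library stood 1.13-fold above KO saline (0.999 to 1.27) and the WT isoproterenol library 1.19-fold above WT saline (1.06 to 1.34), all inside 1.5-fold. The difference of the responses was -0.08 on the log2 scale with an interval that includes 0. Of 11 listed class IIa deacetylases, their kinases and MEF2 factors, 10 had enough reads. In any comparison 0 of them were called, against 0.489% to 11.3% of all tested genes. The median log2 ratio of these 10 was -0.02 in the KO pair, 0.07 in the WT pair, -0.24 between KO isoproterenol and WT isoproterenol, -0.01 between KO saline and WT saline and -0.17 in the difference of responses, against 0.00 over all tested genes in each.

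**Figure D3:**
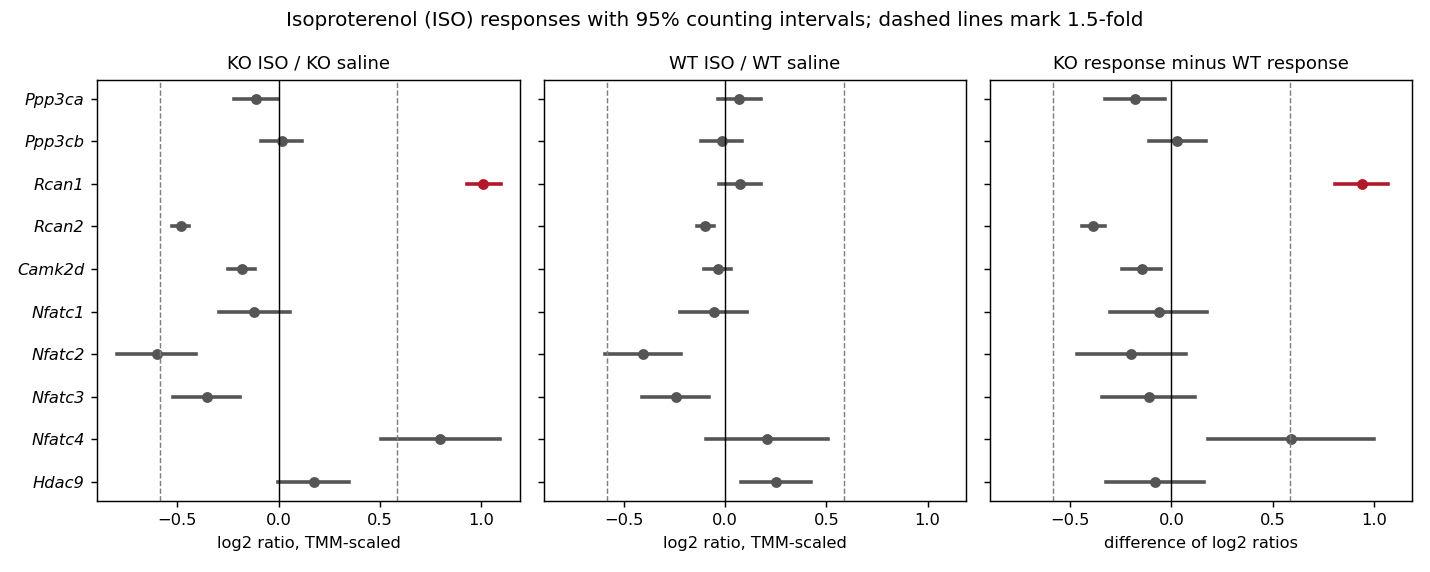
Log2 ratios of isoproterenol to saline in KO and in WT after TMM scaling, and the difference of both, for the 10 genes (rows). Points are ratios of single libraries, lines are 95% counting intervals, dashed lines mark 1.5-fold, and red marks a call. Rcan1 lies at 1.01 in KO and 0.07 in WT, and the 9 other genes have no interval wholly beyond 1.5-fold.

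How tightly the uncalled values are bounded differed between comparisons. The whole interval lay within 1.5-fold for 7 of the 10 genes in the KO pair, for 9 in the WT pair, for 8 between KO isoproterenol and WT isoproterenol, for 10 between KO saline and WT saline, and for 8 in the difference of responses. Over all tested genes those shares were 50.3%, 65.7%, 55.6%, 70.4% and 46.2%, and genes with few reads have wide intervals. The median log2 ratio of the 10 genes was -0.12 in the KO pair, -0.03 in the WT pair, -0.03 between KO isoproterenol and WT isoproterenol, 0.07 between KO saline and WT saline and -0.10 in the difference of responses.

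The sign of the small ratios rests on the scaling. With the deposited totals in place of TMM, the median of all tested genes shifted by 0.18 on the log2 scale in the KO pair, 0.21 between KO isoproterenol and WT isoproterenol, and 0.26 in the difference of responses. Genes above 0 among the 10 then numbered 6 in place of 4 in the KO pair, 2 in place of 4 in the WT pair, 10 in place of 3 between KO isoproterenol and WT isoproterenol, and 9 in place of 3 in the difference. Over all called genes, the share called higher was 80.2% with the deposited totals and 62.7% with TMM in the KO pair, 40.6% and 51.9% in the WT pair, 90.3% and 69.9% between KO isoproterenol and WT isoproterenol, and 92.6% and 68.8% in the difference of responses. Rcan1 was called higher in KO with isoproterenol, against both KO saline and WT isoproterenol, under each scaling tried.

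The last set was the genes that NFAT, or CaMKII through MEF2, is known to act on. Of 8 listed targets, 7 had enough reads, and the list holds both Rcan1 and Hdac9. In the KO pair 4 were called higher (Rcan1, Nppa, Nppb and Acta1) and 1 lower (Nr4a1), and in the WT pair 1 was called higher (Nppa) and 1 lower (Nr4a1). Over all tested genes 11.3% were called in the KO pair and 1.66% in the WT pair. Between KO isoproterenol and WT isoproterenol 5 of the 7 were called higher and 0 lower, against 6% of all tested genes. Between KO saline and WT saline 2 were called higher and 0 lower, against 0.489%. The list was chosen with earlier results of these data known, so these counts are no independent evidence about the targets as a set. The macrophage, fibroblast, cardiomyocyte and atrial markers given beside Rcan1 stand apart in the same KO isoproterenol library, and their part in these values was not tested. Nppa, the atrial natriuretic peptide, had 700 CPM in KO with isoproterenol, 65.3 in KO with saline, 123 in WT with isoproterenol and 68.5 in WT with saline. It was higher with isoproterenol by 9.46-fold in KO (8.97 to 9.98) and by 1.89-fold in WT (1.78 to 2.01). Nppb, the B-type natriuretic peptide, had 232 CPM in KO with isoproterenol, 127 in KO with saline, 42.9 in WT with isoproterenol and 73.3 in WT with saline. It was higher with isoproterenol in KO by 1.60-fold (1.53 to 1.68), while the WT ratio stood 1.62-fold below 1 (1.49 to 1.75), called only with the deposited totals (1.58 to 1.85). Nppb was also called higher in KO than in WT, by 1.80-fold under saline (1.70 to 1.91) and by 4.66-fold under isoproterenol (4.33 to 5.01).

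Acta1, the skeletal alpha-actin of the fetal heart program, had 1682 CPM in KO with isoproterenol, 807 in KO with saline, 481 in WT with isoproterenol and 398 in WT with saline. It was higher in KO with isoproterenol than in KO with saline by 1.84-fold (1.80 to 1.87), and higher in KO than in WT under saline as well, by 2.10-fold (2.05 to 2.15). Myh7, the slow myosin heavy chain of the fetal program, was higher in KO than in WT under isoproterenol by 1.70-fold (1.63 to 1.78), with 323 CPM in KO and 163 in WT. Reads of Myh7 and Acta1 can be split with near-identical Myh6 and Actc1, which makes both values uncertain. Nr4a1, an immediate early nuclear receptor gene, was lower with isoproterenol by 3.34-fold in KO and by 5.87-fold in WT, at 14.1 CPM in KO with isoproterenol against 41.4 with saline, and at 9.70 CPM in WT with isoproterenol against 60.3 with saline.

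Upstream, 10 of 11 listed genes of calcium entry and release had enough reads. Cacna1h, a T-type calcium channel, was the 1 gene of these called in the WT pair, with 20.6 CPM in KO with isoproterenol, 17.5 in KO with saline, 31.6 in WT with isoproterenol and 18.6 in WT with saline. It was higher with isoproterenol in WT by 1.79-fold (1.59 to 2.02), and the KO ratio was 1.04 (0.898 to 1.19). Between KO isoproterenol and WT isoproterenol it was lower in KO by 1.77-fold (1.56 to 2.02), and this was not called with the deposited totals (1.53, 1.35 to 1.74) or with totals outside mitochondrial genes (1.67, 1.47 to 1.90). Over all 75 pathway genes, 70 had enough reads, and in the KO pair 4 were called higher and 4 lower. The share called over all tested genes was 11.3%. In the WT pair 2 were called higher and 1 lower, against 1.66% of all tested genes. Between KO isoproterenol and WT isoproterenol 5 were called higher and 1 lower, against 6%, and between KO saline and WT saline 2 higher and 0 lower, against 0.489%. In the difference of responses 3 were called higher and 1 lower, against 5.57%.

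**Figure D4:**
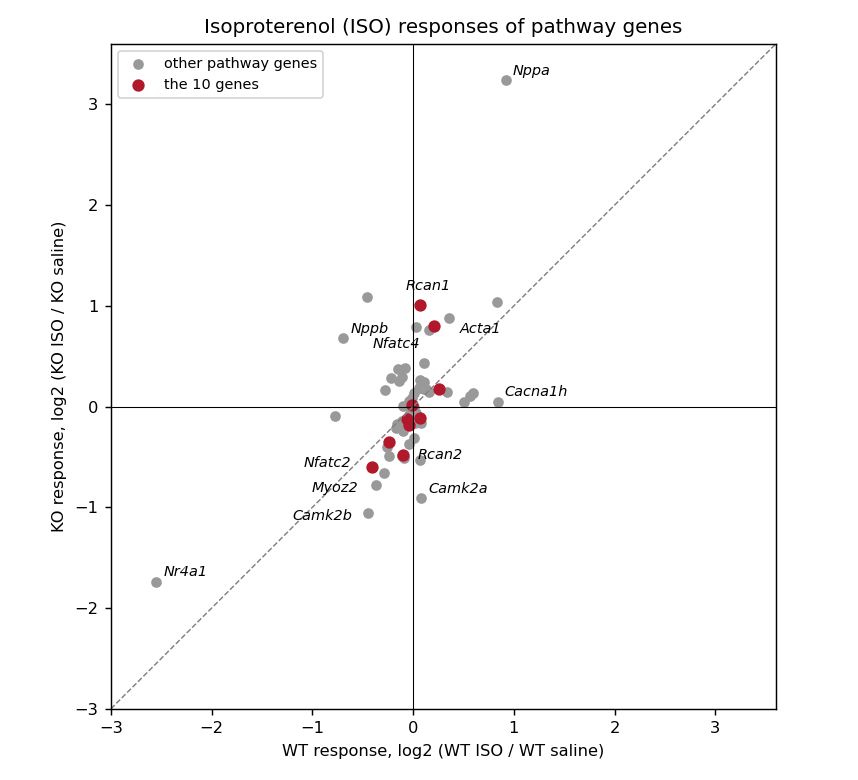
Log2 ratios of isoproterenol to saline after TMM scaling in KO (y axis) and in WT (x axis) for the 70 pathway genes with enough reads, with the 10 genes in red. Each point is 1 gene from 4 single libraries, and the dashed line marks equal responses. Rcan1 lies at 1.01 in KO and 0.07 in WT, and Nppa at 3.24 in KO and 0.92 in WT.

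The 4 libraries can be fitted together when genotype and treatment are taken as additive. This leaves 1 residual degree of freedom, the unequal response of the genotypes, so the p-values do not measure spread between hearts. In limma the variance of each gene is also drawn toward a trend over all tested genes. The SE and p-value of a gene therefore rest in part on other genes. With limma on log2(scaled CPM + 1) and Benjamini-Hochberg adjustment over 14301 genes, 0 of the 10 genes passed an adjusted p of 0.05 for isoproterenol, against 0.00699% of all tested genes, and 0 passed for genotype, against 0% of all tested genes. At an unadjusted p under 0.05 limma gave 1 of the 10 for each effect, against 14.1% and 2.88% of all tested genes. Both edgeR and DESeq2 called 0 of the 10 for either effect, and their counts over all tested genes are given in the last section. Nfatc2 had the lowest p for isoproterenol, with a log2 difference of -0.48 (SE 0.134), a limma p of 0.0123 and an adjusted p of 0.276. It was lower with isoproterenol in 2 of 2 genotypes. Rcan1 had the lowest p for genotype, with a log2 difference of 0.73 (SE 0.228), a limma p of 0.0193 and an adjusted p of 0.996, and it was above WT under 2 of 2 treatments. Since its response differed between genotypes, that difference enters the residual of Rcan1. Of the 70 pathway genes, limma called 0 for either effect.

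Across the promoters of the other genes, 14 windows of the RefSeq table were used for 8 of the 10 genes, 2 of them those of Rcan1. Ppp3ca has no window in the table. That of Nfatc1 was left out here, while its chromosome stayed in the count over all windows. Of the 14 windows used, 10 hold GGAAA at least 1 time, against 55.6% of all windows. At least 3 matches occur in 4 of the 14, 1 each from Rcan1, Nfatc2, Nfatc4 and Ppp3cb, against 6.39% of all windows. Nfatc4 and Nfatc2 lie on opposite sides of no change in the KO pair, and Ppp3cb near it, all without a call. A relation between the count of these letters and the responses was not tested. The MEF2 letters are in 1 of the 14, a window of Hdac9 (chr12:34528890-34529139).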

How the data were processed

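Stranded poly(A) libraries of mouse ventricle were sequenced, 1 per group. The authors deposited CPM per Ensembl gene. HTSeq and the build GRCm38.p4 (mm10) are named in the submitters' processing notes. The aligner is not given in the sources used here, nor are the counting settings. Columns that carry a genotype and no treatment were taken as saline. All deposited CPM values (100%) came out as whole reads within 0.01 reads.

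Recovered reads, plus 0.5 each, were scaled by TMM with edgeR 4.0.16, and each ratio has an exact conditional (Clopper-Pearson) 95% interval, or a normal one for the difference of responses. The minimum was a mean of 10 reads over the libraries (14301 genes). A gene was called when its interval lay beyond 1.5-fold. The additive fit used limma 3.58.1 on log2(TMM-scaled CPM + 1) with a mean trend, adjusted by Benjamini-Hochberg at 0.05; on recovered reads edgeR's quasi-likelihood test called 22 genes by treatment and 3 by genotype. DESeq2 1.42.0 was an alternative. All fits were run on simulated data. For the additive fits the simulated treatment change was equal in both genotypes, so unequal responses were not covered.

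The 10 genes, the pathway and marker lists and the tests were chosen with earlier results of these data known. The text names the 10 genes, P2ry6, pathway genes called in any comparison, and the 3 genes nearest to Rcan1. Esrp2, which overlaps Nfatc3, the paralogs Myh6 and Actc1, and the markers Myl4, Bmp10, Dkk3, Ckm, Myh1 and Myh4 were named after their values were seen. Of the remaining marker lists, smooth muscle summed to 1328 CPM in KO with isoproterenol and 1125 to 1262 CPM elsewhere, and lymphocyte markers to 31.5 CPM and 17.2 to 19.8 CPM. Intervals cover counting error only. Positions came from GENCODE M21. Ppp3ca has no window in the promoter table, and that of Nfatc1 was not used here.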

Additional observations from a re-analysis of the deposited data

Results flagged for a closer look

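Nppb, the B-type natriuretic peptide gene, and Myh7, the slow myosin heavy chain gene, are listed because their isoproterenol responses lay on opposite sides of no change in the 2 genotypes, with counting intervals that exclude 1 on each side. The response of Nppb in KO minus that in WT was 1.37 on the log2 scale, from 0.68 in KO and -0.69 in WT. The same difference for Myh7 was 0.45, from 0.17 in KO and -0.28 in WT. With 1 library per group, neither difference was tested against spread between hearts. Reads that Myh7 shares with Myh6 add to the uncertainty of its value. The genotypes also differed under saline, where KO stood above WT by 1.80-fold for Nppb (1.70 to 1.91), a call. For Myh7 it stood above WT by 1.25-fold (1.20 to 1.29), not a call.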

How the results depend on the processing

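No paired analysis was possible because each group holds 1 library. Leaving out a library was not run, since it removes a group. Over 6 alternatives, 296 of 300 ratios of the 10 genes kept their side of the call, 2 gained a call and 2 lost it. Many of the 296 were fixed in advance. All 10 genes pass a minimum of 50 reads, so changing the minimum could not alter their ratios. A threshold of 2-fold can only remove calls. The KO pair called 2 of the 10 genes with the deposited totals and 2 with totals outside mitochondrial genes, where Nfatc4 joined Rcan1. Over all tested genes the KO pair then called 1445 higher and 357 lower with the deposited totals. With totals outside mitochondrial genes it called 1252 higher and 441 lower, against 1014 higher and 604 lower with TMM. At a threshold of 2-fold the KO pair called 0 of the 10, and so did the difference of responses. Over all genes, a threshold of 2-fold called 701 in the KO pair (1618 at 1.5-fold), 84 in the WT pair (237), 283 between KO isoproterenol and WT isoproterenol (858), 31 between KO saline and WT saline (70) and 265 in the difference (796); a minimum of 50 reads left 44 between KO saline and WT saline. The additive treatment effect called 1 gene with limma, 5 with a pseudocount of 0.1 CPM, 319 with no minimum of reads, 368 with the deposited totals, 22 with edgeR and 174 with DESeq2. The genotype effect called 0 with limma, 3 with the smaller pseudocount, 10 with no minimum, 14 with the deposited totals, 3 with edgeR and 13 with DESeq2. None of these fits called any of the 10 genes. The cause of these shifts was not tested, apart from the stricter threshold itself. Rcan1 ranged from 1.0 to 1.19 on the log2 scale in the KO pair, and from 0.93 to 1.20 in the difference. Nfatc4, with 158 to 255 reads, has the widest intervals of the 10 genes.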
